A study of Mus musculus with 7 samples.

Results

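Mybpc3, Spi1, Madd, Slc39a13, Acp2, Ddb2 and Rapsn lie close together on mouse chromosome 2 and were followed in 7 mouse Group 3 medulloblastomas (G3 MBs), an aggressive childhood tumor of the cerebellum that is driven in this model by Myc. Mybpc3 was chosen because its counts were high in the tumors labelled WDR11OE and low in the controls, and because the order of those tumors was unlike that of skeletal muscle genes. The other 6 genes were chosen by their position next to it. The 7 genes are rows among the 34592 genes of the count table, and 6 of them held enough reads for a test. The row of Spi1 carries the older symbol Sfpi1 and was found by its gene identifier.

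All 7 tumors came from G3 MB tumorspheres of 1 line, which had been grown from tumors of cerebellar granule neuronal progenitors that carried a Myc-IRES-GFP retrovirus and, per the study's methods, lacked Trp53 and Cdkn2c. The spheres were infected with a lentivirus for human WDR11 behind the EF1 promoter with copGFP (4 tumors, labelled WDR11OE) or served as controls (3 tumors), for which the treatment label says none and the protocols describe an empty vector. Unsorted cells were placed in the cortices of CD1-nu/nu mice, which lack T cells but keep macrophages and microglia, and tumor pieces were frozen when the mice became moribund. Each library therefore held RNA of tumor cells and of host tissue, and not every tumor cell need have carried the vector.

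The row of human WDR11, the gene that was introduced, did not separate the groups. It stood at 2.03, 2.19 and 3.13 CPM (reads of a gene per 1000000 reads of the library, scaled by TMM) in the controls and at 4.38, 2.11, 3.05 and 0.624 CPM in the tumors labelled WDR11OE 1 to 4. The fourth of these tumors lay below every control, and edgeR's quasi-likelihood test gave a log2 fold change of 0.05 (standard error [SE] 0.58, adjusted p = 0.961). Mouse Wdr11 read 58.3 to 59.3 CPM in the controls and 61.0 to 68.9 CPM in the others (log2 fold change 0.16, SE 0.06, edgeR adjusted p = 0.0910). How reads were divided between the human and the mouse row is not given in the sources used here. A direction below therefore compares labels, and results that moved without the fourth tumor are given both ways.

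Total counts ran from 33417175 to 41397427 in the controls and from 32116095 to 87141305 in the tumors labelled WDR11OE. Each group's libraries carry numbers of a series of their own, so a batch of that kind and the condition cannot be told apart. The genes listed for tumor cells were Myc, which the retrovirus also carried, Npr3 and Atoh1. Atoh1 is a factor of granule neuron progenitors rather than a marker of G3 MB and had no read in any tumor. Myc and Npr3 were read in every tumor. The summed CPM, which is thus that of Myc and Npr3, was 822 to 1114 in the controls and 283 to 435 in the tumors labelled WDR11OE. Nothing in the labels says how the samples of 1 group were kept apart, and the titles of WDR11OE tumors 1 and 2 share a number, so p-values measure the spread between these 7 samples.

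Mybpc3 encodes cardiac myosin-binding protein C, a protein of the thick filament that tunes the sliding of actin and myosin in the heart and that is often mutated in inherited hypertrophic cardiomyopathy. Its relatives Mybpc1 and Mybpc2 encode the forms of slow and fast skeletal muscle. The genes around it have no shared role. Spi1 encodes PU.1, a transcription factor of macrophages and other blood cells, Madd an exchange factor for RAB3 GTPases that is abundant in neurons, Slc39a13 a zinc transporter, Acp2 a lysosomal acid phosphatase, Ddb2 a sensor of damaged DNA and Rapsn the scaffold rapsyn, which clusters acetylcholine receptors under motor nerve endings.

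In the NCBIM37 annotation, Mybpc3 occupies chr2:90958301-90976673 on the plus strand. Spi1 (chr2:90922547-90955913) ends 2387 bases before it on the same strand. Madd (chr2:90977517-91023994), which runs toward Mybpc3 on the opposite strand, ends 843 bases beyond the end of Mybpc3. Further out lie Slc39a13 (chr2:90901948-90910574) and Rapsn (chr2:90875777-90885886) on the side of Spi1, and Acp2 (chr2:91043042-91054255) and Ddb2 (chr2:91051729-91077139) on the side of Madd. Acp2 and Ddb2 run toward each other and share 652 exonic bases, which is 12.6% of the exonic length of Acp2 and 23.8% of that of Ddb2. Slc39a13 shares 215 exonic bases (4.42%) with Psmc3. If reads were counted without strand, those within shared bases cannot be assigned to 1 gene. No exonic base of Mybpc3, Spi1 or Madd is shared with another gene of the table.

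The 250 bases before the annotated starts of 3 genes are shown 5′ to 3′ on the strand of the gene, from the NCBIM37 genome: Mybpc3 as the gene with the largest difference, Rapsn as the other muscle gene and Ddb2 as the neighbour that passed the test. Capitals mark matches to the motifs searched on both strands, which were the E-box CANNTG of basic helix-loop-helix factors, the PU-box core GAGGAA, the GATA motif AGATAA, and the MEF2 and CArG boxes of muscle genes. The windows are chr2:90958051-90958300 (plus strand), chr2:90875527-90875776 (plus strand) and chr2:91077140-91077389 (minus strand).
Mybpc3: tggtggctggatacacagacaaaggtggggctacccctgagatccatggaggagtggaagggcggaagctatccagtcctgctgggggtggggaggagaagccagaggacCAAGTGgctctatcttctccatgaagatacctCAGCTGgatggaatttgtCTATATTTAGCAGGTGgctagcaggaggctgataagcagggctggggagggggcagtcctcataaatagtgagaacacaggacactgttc
Rapsn: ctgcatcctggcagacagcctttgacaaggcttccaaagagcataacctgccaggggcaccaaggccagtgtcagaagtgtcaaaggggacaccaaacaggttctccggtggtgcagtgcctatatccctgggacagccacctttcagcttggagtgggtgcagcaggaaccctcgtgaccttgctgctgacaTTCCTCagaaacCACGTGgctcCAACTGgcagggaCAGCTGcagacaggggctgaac
Ddb2: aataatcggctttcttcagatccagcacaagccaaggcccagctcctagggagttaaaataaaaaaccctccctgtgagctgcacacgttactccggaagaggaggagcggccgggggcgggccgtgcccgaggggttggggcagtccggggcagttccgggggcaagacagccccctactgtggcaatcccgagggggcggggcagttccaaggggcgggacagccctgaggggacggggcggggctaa

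The window of Mybpc3 held 3 E-boxes, which begin 140, 108 and 80 bases before the start, and 1 MEF2 box, which begins 90 bases before it and abuts the last E-box, so that both form 1 run of capitals. Rapsn had a PU-box core on the opposite strand, 57 bases before its start, and E-boxes that begin 45, 35 and 22 bases before it. The window of Ddb2 matched none of the motifs. Among 22375 windows of this length, an E-box occurred in 63.5%, the PU-box core in 23%, the GATA motif in 9.33%, a MEF2 box in 2.94% and a CArG box in 1.34%. These matches are letters in a window and no measurement of binding was made.

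Mybpc3 went from near the detection limit to a well-read gene. The 3 controls held 4, 8 and 2 reads, and the tumors labelled WDR11OE 1 to 4 held 1947, 2553, 793 and 2308. Scaled by library, this is 0.111, 0.191 and 0.0613 CPM against 46.1, 31.9, 24.4 and 25.3 CPM. Exact Poisson intervals of the controls reached from 0.00742 to 0.376 CPM over the 3 libraries, where 3 reads correspond to 0.0715 to 0.0919 CPM. That of control 2 began above its own level of 3 reads, at 0.0824 CPM. The lowest of the other tumors, number 3, had an interval of 22.8 to 26.2 CPM, so the groups were far apart. These intervals cover counting error only.

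The pooled reads of Mybpc3 were 244 times as abundant in the tumors labelled WDR11OE (95% counting interval 145 to 446). edgeR's fitted log2 fold change was 7.97 (SE 0.44), the ninth highest among 17389 genes, and 8.05 (SE 0.41) without the fourth WDR11OE tumor. Since the gene was picked for this difference, the values are a description and no test is attached to them. A gene was called where it passed an adjusted p of 0.05, differed 2-fold or more and had a mean log2 CPM above 0. Among all genes tested 5.55% were called, with 2.19% higher and 3.36% lower in the tumors labelled WDR11OE.

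Set against the other members per exonic length, Mybpc3 changed places. Mean CPM per kilobase in the controls was 6.31 for Acp2, 3.51 for Madd, 2.87 for Ddb2, 2.46 for Slc39a13, 1.40 for Spi1, 0.0341 for Rapsn and 0.0291 for Mybpc3. In the tumors labelled WDR11OE the order was Mybpc3 at 7.66, Acp2 at 6.50, Ddb2 at 4.87, Madd at 2.78, Slc39a13 at 1.88, Spi1 at 0.791 and Rapsn at 0.138 CPM per kilobase. Mybpc3 and Acp2 did not separate there: Mybpc3 read 11.1, 7.65, 5.87 and 6.07 CPM per kilobase in tumors 1 to 4, and Acp2 6.03, 6.04, 6.24 and 7.70. In tumors 3 and 4 Acp2 was thus the higher of the pair.

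**Figure D1:**
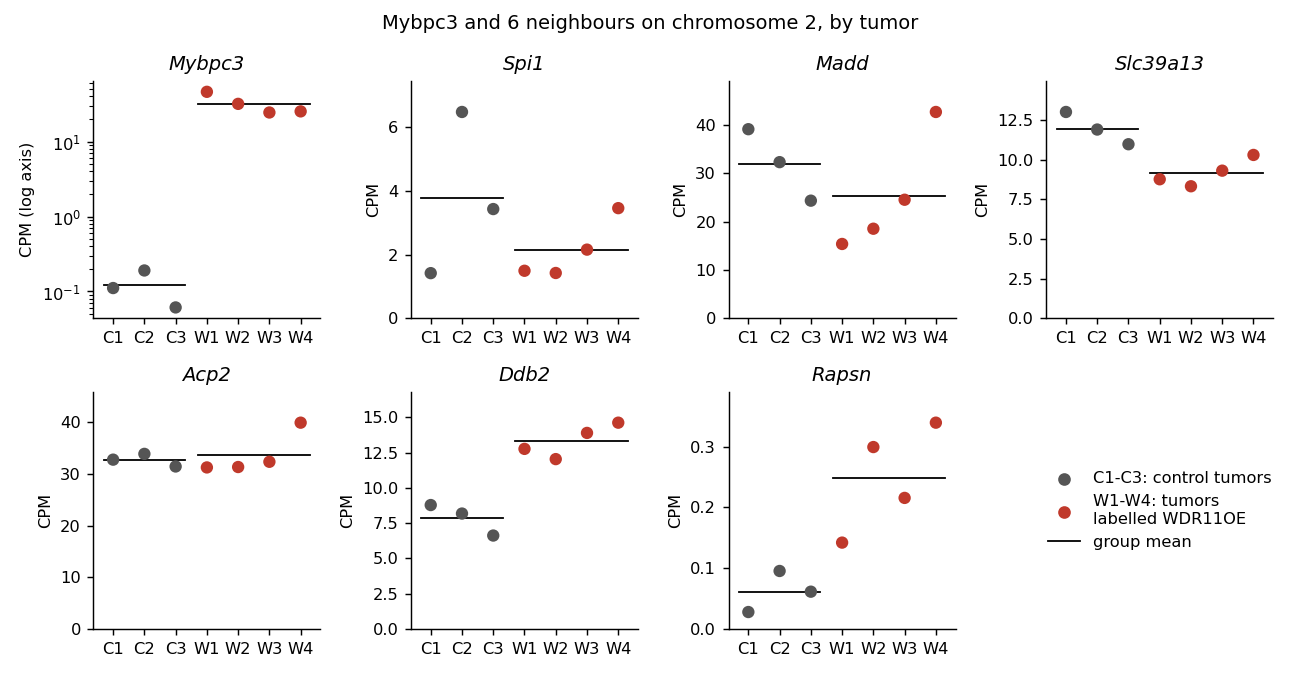
Level of the 7 genes in each tumor, in CPM scaled by TMM (log axis for Mybpc3, linear axes from 0 for the others). Grey points are the 3 controls (C1 to C3), red points the 4 tumors labelled WDR11OE (W1 to W4) and lines the group means. The groups do not overlap for Mybpc3, Slc39a13, Ddb2 and Rapsn and overlap for Spi1, Madd and Acp2. Over all genes tested, 42.7% had groups without overlap, and Mybpc3 was chosen for its difference.

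The 2 paralogs of Mybpc3 were also higher in the tumors labelled WDR11OE, though at much lower levels. Mybpc2 read 0.167, 0.238 and 0.215 CPM in the controls and 3.41, 2.67, 5.82 and 1.71 CPM in tumors 1 to 4 (log2 fold change 4.02, SE 0.50, edgeR adjusted p = 0.00154). Mybpc1 read 0.528, 0.453 and 0.0613 CPM against 1.61, 1.20, 3.54 and 2.42 CPM (log2 fold change 2.63, SE 0.69, edgeR adjusted p = 0.024). Neither paralog reached the level of the filter on low counts (0.242 CPM) in every control. Both thus entered the test through the tumors in which they were high, and their values are a description. Both paralogs peaked in the third tumor, where Mybpc3 was lowest, and Mybpc3 was chosen for an order unlike that of skeletal muscle genes. Per kilobase, Mybpc3 exceeded Mybpc2 by 11.7, 10.3, 3.64 and 12.8 times in tumors 1 to 4. Its share of the summed family, per kilobase, was 14.1%, 21.6% and 16.8% in the controls and 89.5%, 88.4%, 71.0% and 85.8% in the tumors labelled WDR11OE.

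Skeletal muscle markers moved with Mybpc3 between the groups, while their order among the 4 tumors differed from that of Mybpc3. Mybpc3 was chosen for that difference in order, so the values below describe it and do not test it. Summed over the 8 markers Myh4, Acta1, Ckm, Myh1, Myh2, Tnnt3, Mylpf and Mb, the level was 2.25, 1.67 and 1.38 CPM in the controls and 81.1, 45.5, 121 and 38.7 CPM in tumors 1 to 4. Each of the 8 markers was highest in tumor 3 and lowest in tumor 4. Mybpc3 was instead highest in tumor 1, and its highest level was 1.89 times its lowest, against 3.14 times for the marker sum. The ratio of Mybpc3 to that sum was 0.569, 0.700, 0.201 and 0.653. In bulk RNA, fewer cells of a type and less RNA per cell cannot be told apart, and the part of muscle tissue in the level of Mybpc3 was not tested.

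Of 32 skeletal muscle genes listed, the 2 paralogs among them, 24 were tested and 21 rose at an edgeR adjusted p under 0.05, with none lower, where 33.9% of all genes passed in either direction and 18.1% were higher. Of the 24, 10 reached the level of the filter on low counts (0.242 CPM) in none of the controls, so that they entered the test only through the tumors in which they were high, and the count and the median are a description. Of the other 14, 11 rose. Those 14 reached that level in at least 1 control but, as with Mybpc1, not always in every control, so this count is a description too. Among the 21, 18 were highest in tumor 3 and 17 lowest in tumor 4. The exceptions to tumor 3 included the enolase Eno3, highest in tumor 1 at 30.3 CPM, and the slow troponin Tnnt1, which was lowest in tumor 3 at 1.45 CPM, and these were chosen after their values were seen. Their median log2 fold change was 4.14, against 0.08 over all genes, and 3.91 with the 2 genes without a read in the controls set to their lower bound. The defining genes were the fast myosin Myh4, which went from at most 0.167 CPM in a control to between 11.9 and 36.2 CPM, the actin Acta1 (at most 0.333, then 7.94 to 23.5 CPM) and the creatine kinase Ckm (at most 0.0278, then 4.63 to 16.8 CPM). Myoglobin (Mb) had no read in a control and 1.38 to 4.78 CPM in the other group.

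Heart genes changed less than Mybpc3. Among 29 cardiac genes listed, 14 were tested and 7 rose, with a median log2 fold change of 0.95, where 18.1% of all genes were higher. Of the 14, 2 reached the filter in no control, which were Xirp2 and Actc1. They entered the test only through the tumors in which they were high, so the count and the median are a description. Of the other 12, 5 rose. Those 12 reached that level in at least 1 control, though not all of them in every control. Xirp2 (at most 0.0278 CPM in a control, then 0.512 to 1.91 CPM) and cardiac actin Actc1 (at most 0.0477, then 0.250 to 1.45 CPM) rose most, and both peaked in tumor 3, as 18 of the 21 skeletal genes did. Of the defining heart genes, Tnni3, the cardiac inhibitory troponin, went from 2.18 to 2.31 CPM in the controls to 3.48 to 5.44 CPM (log2 fold change 0.98, SE 0.20, edgeR adjusted p = 0.00929). The atrial myosin Myh6 stayed at or under 0.216 CPM and the natriuretic peptide Nppa at or under 0.613 CPM in every tumor, and neither was tested. The summed level of 8 cardiac markers was 2.42 to 3.00 CPM in the controls and 5.33 to 6.67 CPM in the tumors labelled WDR11OE, below the 24.4 CPM or more of Mybpc3 alone. Most of that sum was Tnni3 in each tumor. The count of cardiac genes that rose was 3 without control 3 and 4 without control 2, tumor 1 or tumor 3.

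**Figure D2:**
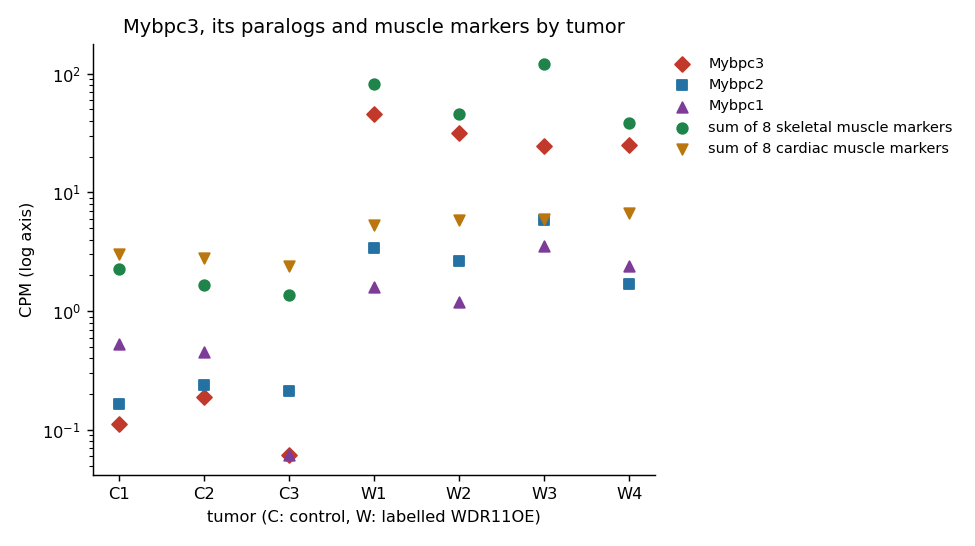
CPM (log axis) of Mybpc3, its paralogs and the summed skeletal and cardiac muscle markers in each control (C1 to C3) and each tumor labelled WDR11OE (W1 to W4). In W3 the skeletal sum is at its highest (121 CPM), while Mybpc3, chosen for such a difference, is at its lowest among W1 to W4 (24.4 CPM). The cardiac sum stays at or below 6.67 CPM in all 7 tumors.

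Spi1, the nearest gene before the start of Mybpc3, did not rise with it. It read 1.42, 6.49 and 3.43 CPM in the controls and 1.49, 1.42, 2.16 and 3.46 CPM in the tumors labelled WDR11OE 1 to 4. The groups overlapped, and the log2 fold change of −0.82 (SE 0.53, 95% interval −1.87 to 0.22) did not pass the test (edgeR adjusted p = 0.284, exact permutation p = 0.371). Control 2 was the highest and control 1 stood with the lowest. The summed level of 8 macrophage and microglia markers ran in almost the same order, at 76.6, 230 and 126 CPM in the controls and 103, 88.3, 143 and 210 CPM in the others.

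Log2 fold changes over the macrophage list ran from −1.16 to 0.92. By edgeR, 0 of its 24 genes had an adjusted p under 0.05, where 33.9% of all genes passed, and 1 had an unadjusted p under 0.05. DESeq2 gave 1 and limma-voom 0, leaving out control 1 gave 3 and leaving out tumor 4 gave 1. The defining genes were Csf1r, the receptor that macrophages need to survive (log2 fold change −0.22, SE 0.49, edgeR adjusted p = 0.767), the adaptor Tyrobp (0.25, SE 0.43, edgeR adjusted p = 0.707) and the leukocyte antigen Ptprc (0.41, SE 0.35, edgeR adjusted p = 0.416). Over the 7 tumors the genes most like Spi1 in log2 CPM were Was, a regulator of actin in blood cells (Pearson r = 0.989), and the adaptor Lcp2 (r = 0.979). The points share their libraries, and the likeness is a description. The part of macrophages in the level of Spi1 was not tested.

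Madd, the nearest gene beyond the end of Mybpc3, did not follow it either. Its level was 39.1, 32.3 and 24.3 CPM in the controls and 15.4, 18.5, 24.5 and 42.7 CPM in the tumors labelled WDR11OE 1 to 4. Tumor 4 was the highest of all 7 and tumor 1 the lowest, with a log2 fold change of −0.34 (SE 0.35, 95% interval −1.03 to 0.36, edgeR adjusted p = 0.514, exact permutation p = 0.400). Without tumor 4, the one with the least human WDR11, it was −0.72 (edgeR adjusted p = 0.0465). The sum of 4 neuron markers was likewise high in tumor 4 and in control 1, at 363 and 360 CPM, and lowest in tumors 1 and 2, at 9.31 and 18.7 CPM, and control 2, control 3 and tumor 3 lay between at 86.2, 45.9 and 110 CPM.

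Log2 fold changes over the neuron list ran from −2.51 to 2.28. Of its 19 genes, 0 passed in edgeR, where 33.9% of all genes did. An unadjusted p under 0.05 was found for 0, and DESeq2 and limma-voom passed 0 as well. Leaving out control 1 or tumor 4 gave 1. Of 15 astrocyte and oligodendrocyte genes, edgeR, DESeq2 and limma-voom likewise passed 0, with 0 at an unadjusted p under 0.05, and 1 passed in edgeR with the GC trend removed. The vesicle fusion gene Snap25 ranged from 1.28 CPM in tumor 1 to 141 CPM in tumor 4, the calcium sensor Syt1 from 1.28 to 133 CPM and the nuclear protein Rbfox3 from 5.23 to 22.1 CPM in the same tumors. The part of neurons in the level of Madd was not tested.

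**Figure D3:**
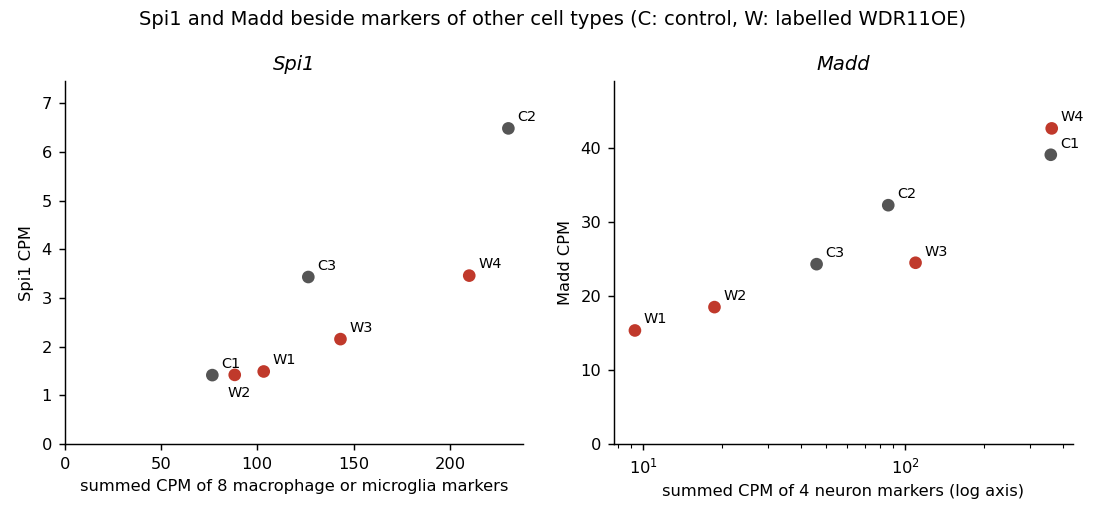
Spi1 CPM against the summed CPM of 8 macrophage or microglia markers (left) and Madd CPM against the summed CPM of 4 neuron markers (right, log axis), with 1 point for each control (C1 to C3, grey) and each tumor labelled WDR11OE (W1 to W4, red). Control 2 is highest for Spi1 (6.49 CPM) and for its markers (230 CPM), and W4 is highest for Madd (42.7 CPM) and for its markers (363 CPM).

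RAB3 and RAB27 guide vesicles to release sites, and the DENN domain proteins, Madd among them, load RAB proteins with GTP. In that list 20 genes were tested, of which 1 rose and 3 fell, and 33.9% of all genes passed in either direction. Rab27a rose from 16.6 to 28.4 CPM in the controls to 32.1 to 66.4 CPM (log2 fold change 1.28, SE 0.29, edgeR adjusted p = 0.0139), with tumor 4 the lowest of its group. Rph3a, an effector of RAB3 in neurons, fell (log2 fold change −2.50, SE 0.80, edgeR adjusted p = 0.0479), and so did Dennd1a (−0.77, SE 0.09, edgeR adjusted p = 0.00148). The median over the list was −0.14, and 2 genes passed without control 2 or control 3.

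Ddb2 rose in the tumors labelled WDR11OE. Its levels were 8.78, 8.18 and 6.62 CPM in the controls and 12.8, 12, 13.9 and 14.6 CPM in tumors 1 to 4, without overlap. Such a lack of overlap was found for 42.7% of all genes tested. The rise of Ddb2 was 1.70-fold, with a log2 fold change of 0.76 (SE 0.15, 95% interval 0.47 to 1.05, edgeR adjusted p = 0.00728, exact permutation p = 0.0286, the smallest that 35 splits allow). The change stayed under the 2-fold limit for a call. Acp2, which shares exonic bases with Ddb2, did not move with it. Of the 5 neighbours tested, Ddb2 was the only one to pass an adjusted p of 0.05, and 33.9% of all genes did so. Without tumor 4, Madd and Slc39a13 passed too, so that 3 of the neighbours did.

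DDB2 works with DDB1 to find ultraviolet lesions in DNA and hands them to the nucleotide excision repair machinery. Of 19 other genes of that pathway, 7 rose, 2 fell and 10 did not pass, where 18.1% of all genes were higher and 15.8% lower. The damage verifier Xpa rose most, from 4.91 to 6.67 CPM in the controls to 8.83 to 10.8 CPM (log2 fold change 0.68, SE 0.16, edgeR adjusted p = 0.0181), followed by Ercc8, which acts at stalled transcription (0.63, SE 0.08, edgeR adjusted p = 0.00154). The helicase Ercc3 was among those that fell (−0.30, SE 0.10, edgeR adjusted p = 0.0485). Ddb1, the partner of DDB2, read 572 to 747 CPM over the 7 tumors with a log2 fold change of −0.02 (SE 0.13, edgeR adjusted p = 0.907). The median of the list was 0.04, and with the trend of expression on GC content removed 4 of the 19 passed in place of 9. Without control 2, tumor 1 or tumor 2 it was 5.

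Acp2 had the smallest fold change of the 5 neighbours tested. It read 32.8, 33.9 and 31.4 CPM in the controls and 31.3, 31.3, 32.4 and 39.9 CPM in tumors 1 to 4, with a log2 fold change of 0.04 (SE 0.10, 95% interval −0.16 to 0.25, edgeR adjusted p = 0.779, exact permutation p = 0.971). Tumor 4 lay apart from the rest, and without it the log2 fold change was −0.05. Among 24 other lysosomal genes, 2 rose and 5 fell, with a median of −0.14, where 18.1% of all genes were higher and 15.8% lower. The receptor Scarb2 (0.57, SE 0.15, edgeR adjusted p = 0.0251) and the protease Ctsl (0.52, SE 0.10, edgeR adjusted p = 0.00779) rose, and β-glucuronidase Gusb (−0.54, SE 0.16, edgeR adjusted p = 0.0383) and the cholesterol transporter Npc1 (−0.54, SE 0.10, edgeR adjusted p = 0.00663) fell most. Those 7 became 1 without tumor 1, 2 without tumor 2 or control 3, 3 without control 2 and 4 without tumor 3. With the GC trend removed they were 3.

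Slc39a13 was lower in each tumor labelled WDR11OE than in any control without passing the test. The values were 13, 11.9 and 11 CPM against 8.76, 8.32, 9.31 and 10.3 CPM (log2 fold change −0.38, SE 0.13, 95% interval −0.64 to −0.13, edgeR adjusted p = 0.0589, exact permutation p = 0.0571). Groups without overlap were found for 42.7% of all genes tested, and 15.8% were lower at an adjusted p under 0.05. The adjusted p was 0.0395 without tumor 4 and 0.316 with the GC trend removed. Slc39a13 lies in the Golgi and vesicles and exports zinc from them to the cytosol. Of 11 other ZIP transporters tested, 4 fell and none rose, with Slc39a10 (−0.61, SE 0.12, edgeR adjusted p = 0.0068) and Slc39a1 (−0.56, SE 0.10, edgeR adjusted p = 0.00505) the furthest. The median of the list was −0.16.

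Rapsn, the other muscle gene near Mybpc3, stayed close to the detection limit. Its counts were 1, 4 and 2 reads in the controls and 6, 24, 7 and 31 reads in the tumors labelled WDR11OE 1 to 4, or 0.0278, 0.0954 and 0.0613 CPM against 0.142, 0.299, 0.216 and 0.340 CPM. The groups did not overlap (exact permutation p = 0.0286), and the pooled reads were 4.36 times as abundant in the second group (95% counting interval 2.01 to 11.3). Of all genes tested, 42.7% had groups without overlap. The filter on low counts left Rapsn out of the test across genes. Tumor 4 held the most and tumor 1 the least. Their exact 95% counting intervals, 0.231 to 0.482 and 0.0521 to 0.309 CPM, overlap, so the order among the 4 tumors is not resolved. Rapsn also shares 4 exonic bases with Gm13778.

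Rapsyn holds acetylcholine receptors in place at the neuromuscular junction. Of 15 other genes of that apparatus, 9 were tested, 2 fell and none rose, where 15.8% of all genes were lower. Agrin (Agrn), which signals for receptor clustering and is also made by other tissues, read 248 to 305 CPM in the controls and 166 to 204 CPM in the others (log2 fold change −0.62, SE 0.11, edgeR adjusted p = 0.00463). The laminin Lamb2 had a log2 fold change of −0.78 (SE 0.16, edgeR adjusted p = 0.0083). The receptor subunit Chrna1, typical of muscle, lay between 0.0474 and 0.222 CPM in all tumors. With the GC trend removed, neither Agrn nor Lamb2 passed.

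Most genes around Mybpc3 did not pass the test. Within 500 kb of the gene, 35 genes were in the table and 26 were tested, of which 6 (23.1%) had an edgeR adjusted p under 0.05, Mybpc3 included, against 33.9% of all genes. Within 250 kb it was 3 of 18 (16.7%) and within 1000 kb 13 of 38 (34.2%). Both counts again include Mybpc3, which was picked for its difference. Without Mybpc3, 25 genes were tested within 500 kb, of which 4 rose and 1 fell. Within 1000 kb 37 were tested, of which 5 rose and 7 fell, where 18.1% of all genes were higher and 15.8% lower. The median log2 fold change without Mybpc3 within 500 kb was 0.08, which is that of all genes, and over chromosome 2 it was 0.09. Besides Mybpc3 and Ddb2, 2 of the 6 genes that passed changed by at least 1.5-fold. Celf1, an RNA-binding protein of splicing, fell from 204 to 225 CPM in the controls to 117 to 148 CPM (log2 fold change −0.67, SE 0.09, edgeR adjusted p = 0.00215). The pseudogene Rpl30-ps3 rose from 4.41 to 6.13 CPM to 9.14 to 11.8 CPM (log2 fold change 1.03, SE 0.18, edgeR adjusted p = 0.00472), and its reads may be shared with copies of the ribosomal protein gene.

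**Figure D4:**
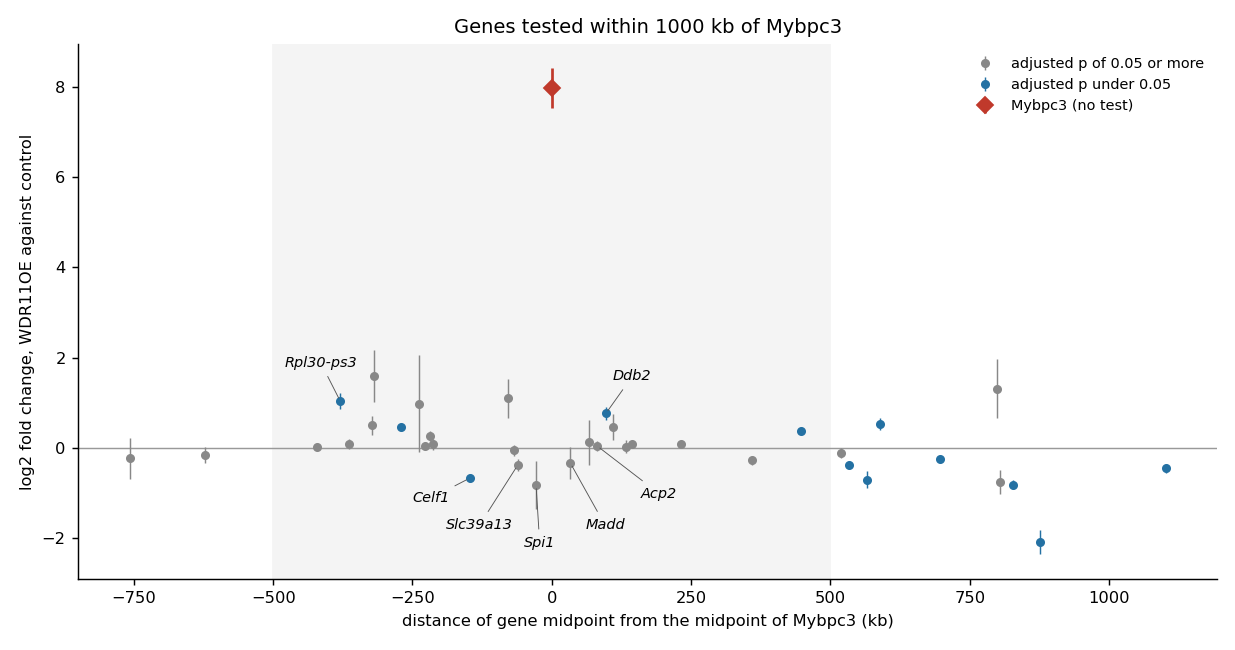
Log2 fold change (tumors labelled WDR11OE against controls, with SE bars) of the 38 genes tested within 1000 kb of Mybpc3, against the distance of each gene's midpoint from that of Mybpc3 in kb. Blue points passed an edgeR adjusted p of 0.05, grey points did not, the red diamond is Mybpc3 and the shaded band spans 500 kb to each side. Mybpc3 stands at 7.97 and its direct neighbours Spi1 and Madd lie at −0.82 and −0.34.

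Among the genes whose levels ran most like Mybpc3 over the 7 tumors in log2 CPM were Fggy (Pearson r = 0.998), Ccnc, 0610010O12Rik and Ankrd26 (r = 0.995). None of them is a muscle gene of the lists. Their log2 fold changes were 0.44 for Fggy, 0.72 for Ccnc, 4.28 for 0610010O12Rik and 0.42 for Ankrd26. The values fall into 2 clusters, the groups themselves, so that r describes mainly the gap between them. 0610010O12Rik read 2.89, 3.31 and 1.59 CPM in the controls and 63.0, 49.4, 38.6 and 52.2 CPM in tumors 1 to 4, where tumor 1 was the highest and tumor 3 the lowest, as for Mybpc3.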

How the data were processed

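Total RNA of 7 tumor pieces was sequenced (4 labelled WDR11OE, 3 controls). The kit is TruSeq RNA v2 per the labels and total stranded RNA in the study's methods. The authors mapped reads to NCBIM37.67 with the StrongArm pipeline, counted reads per gene with HTSeq on a GENCODE annotation and deposited the raw counts, not normalized. The strand setting of the counting is not given in the sources used here.

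From the deposited counts, filterByExpr of edgeR 4.0.16 (R 4.3.3) kept 17389 of 34592 genes, which were scaled by TMM and entered the two-sided quasi-likelihood test with the condition as its only term and Benjamini-Hochberg adjustment over all genes tested. Called genes had an adjusted p under 0.05, changed at least 2-fold and had a mean log2 CPM (prior count 2) above 0. Single genes were also compared by a two-sided exact permutation test of the means of log2 CPM over the 35 splits of the tumors, where the smallest p is 0.0286. Totals of 32116095 to 87141305 counts put 3 reads at 0.0329 to 0.0924 CPM. Counting intervals are exact (95%). Coordinates, exonic lengths and GC content came from the NCBIM37 genome and GENCODE annotation, which matched 33606 genes (97.1%).

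The members and the 10 gene lists were chosen with earlier results of these data known. Named genes are the 7 members, the Mybpc3 paralogs, genes within 500 kb with an adjusted p under 0.05 and a change of at least 1.5-fold, from each list the 2 largest rises and falls that passed and, for cell types, the first 3 genes, and the genes most like Mybpc3 (5) and Spi1 (2). The same could not be given for Rapsn, which lay below the filter. Some genes that this rule names are not reported here. Chrna1 and Ddb1 were named after their values were seen. The alternatives were limma-voom (limma 3.58.1), DESeq2 1.42.0, other scalings, filters, thresholds and windows, removal of the GC trend, the sum of WDR11OE tumors 1 and 2, and leaving out each tumor. The fits were tested on simulated data.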

Additional observations from a re-analysis of the deposited data

Results flagged for a closer look

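Within the 4 tumors labelled WDR11OE, the Acp2 level of tumor 4 (39.9 CPM) lay apart from the other values of 31.3, 31.3 and 32.4 CPM. The gap to the nearest value was 0.874 of the range of the group, above the Dixon 95% limit for 4 samples, which chance passes in about 1 of 20 groups. The same limit was applied to the other members, the paralogs, human and mouse WDR11 and the marker sums, and none of these passed it. Among that many looks, a single pass can come by chance.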

How the results depend on the processing

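Mybpc3 kept its direction under 16 alternatives, with log2 fold changes of 7.68 to 8.48. Ddb2 stayed past the threshold in all 16 (0.63 to 0.84, adjusted p 5.46e-06 to 0.0274). The count of neighbours with an adjusted p under 0.05, 1 in the report, was 2 with DESeq2, with RLE scaling and with a filter of 1 CPM in 3 tumors, and 1 to 3 when a tumor was left out. The added neighbour under the first 3 of these was Slc39a13. Acp2 turned to −0.0027 with DESeq2, −0.0040 with RLE scaling, −0.013 without a filter and −0.037 with the GC trend removed, and lay between −0.048 (without WDR11OE tumor 4) and 0.069 when a tumor was left out. Rapsn could be tested under 4 alternatives and passed without control 2 (2.47, adjusted p = 0.0435). The 6 genes within 500 kb, Mybpc3 included, became 3 within 250 kb, 13 within 1000 kb and 5 to 8 when a tumor was left out. With the GC trend removed they were 4 within 500 kb. Over all genes tested, log2 fold change ran against exonic GC content (Spearman rho −0.344). Genes of the 10 lists that passed went from 54 to 34 at an adjusted p under 0.01 and lay between 39 and 55 when a tumor was left out. The cardiac list gave 2 to 8 genes over the alternatives. The calls over all genes, 381 higher and 584 lower, were 3150 and 2744 without limits on fold and expression, and 258 to 459 and 531 to 676 when a tumor was left out. With the GC trend removed they were 299 and 467. Scaling moved the median of all genes between 0.04 and 0.12. The cause of these changes was not tested. At these depths, Rapsn and the control levels of Mybpc3 rest on a few reads. No paired analysis was possible because the labels give the groups no shared replicate numbers.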
